A study of Homo sapiens with 12 samples.

Results

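The window on chromosome 8 that holds the gene of SLEAR was examined in ChIRP-seq peak lists from Jurkat, an established line of human leukaemic T cells. Members were all peaks with a summit from 102000001 to 102150000 on hg19, a stretch of 150 kb placed around the gene by position. They numbered 61 of the 764268 peaks in 9 lists, with 4, 10 and 7 in odd replicates 1, 2 and 3, 10, 7 and 10 in the even replicates, and 4, 6 and 3 in the lacZ replicates. Merged wherever peaks shared at least 1 base, they formed 24 of 357901 regions on chromosomes 1 to 22 and X. The RefSeq gene table at hand follows GRCh38, a different build, so the ends of the gene were not placed on hg19 here. In the order of that table SLEAR lies between the long non-coding RNA genes LOC401471 and LINC03044, with YWHAZ, which encodes a signalling adaptor protein, farther down on the LOC401471 side.

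The labels name 12 samples in 4 groups of 3, called input, lacZ, odd and even, and the 3 input samples were not analysed here. All groups came from Jurkat cells stably expressing SLEAR, grown in RPMI-1640 medium with fetal bovine serum. No group without that expression is named. The sources used here do not give the construct, its promoter or the number of clones, and a peak list on the reference genome does not separate the native gene from any other copy of the same sequence. Replicates carry numbers, and nothing in the labels says that they were separate cultures, so a p-value here reflects the spread between these libraries alone, which may be technical.

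SLEAR is a long non-coding RNA, a transcript that is not translated, and the series title links it to systemic lupus erythematosus and apoptosis. ChIRP captures crosslinked chromatin with biotinylated oligonucleotides that pair with the RNA, in an odd and an even set that share no oligonucleotide. Background is given by probes for lacZ, a bacterial RNA absent from human cells. The gene of the captured RNA is a place of its own in such data, since RNA being transcribed lies beside its template and probes that match an RNA also match its gene. Neither was tested here.

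Heights are given as pileup, the fragment coverage at a summit that the authors deposited as whole numbers without scaling to depth. The median pileup of a list lay between 20 and 32, and its total reads are unknown. The sources used here do not say whether duplicate reads were kept, and very high pileups depend on that, so the heights, ranks and ratios below hold for the lists as deposited. Pileup is therefore also given relative to the median of its own list, and ranks are within a list, over chromosomes 1 to 22 and X. The 99th percentile of pileup varied more than the median, from 125 in lacZ replicate 3 to 453 in odd replicate 2. Values relative to the median may therefore still carry differences in depth. Because the earlier results of these data were known when the locus was chosen, heights and ranks of single regions are a description.

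The signal of the probe lists was concentrated in a pair of regions about 23 kb apart. The lower one lay from 102063875 to 102065444 and the upper one from 102086950 to 102088916. Each was a single peak in each of the 6 probe lists. Their summits, as medians over the probe lists, were 23363 bases apart, and the outer edges of the pair enclosed 25042 bases. They are called the lower and the upper region below, by coordinate, since the strand of the gene was not used.

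In the upper region the pileup was 1121, 3238 and 1559 in odd replicates 1, 2 and 3, and 2221, 2955 and 1626 in the even replicates. The mean was 74.1 ± 29.2 times the list median with odd and 82.6 ± 9.22 times with even probes (SD, n = 3). The odd and even values overlapped, and odd replicate 1 was the lowest of the 6, at 43.1 times its median. By pileup the peak ranked 11, 7 and 8 in the odd lists and 3 in each even list. By the authors' fold enrichment it ranked 2, 2 and 3 in the odd lists and 1 in each even list.

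In the lower region the pileup was 760, 2107 and 968 in the odd replicates and 1685, 2112 and 1114 in the even replicates. Relative to the list median this was 47.8 ± 18.3 with odd and 59.3 ± 5.82 with even probes (SD, n = 3), again with overlapping ranges. The peak ranked 18, 13 and 15 by pileup in the odd lists and 4, 6 and 5 in the even lists. Its rank by fold varied more, from 2 in even replicate 2 to 287 in odd replicate 3. No lacZ list had a peak there.

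**Figure D1:**
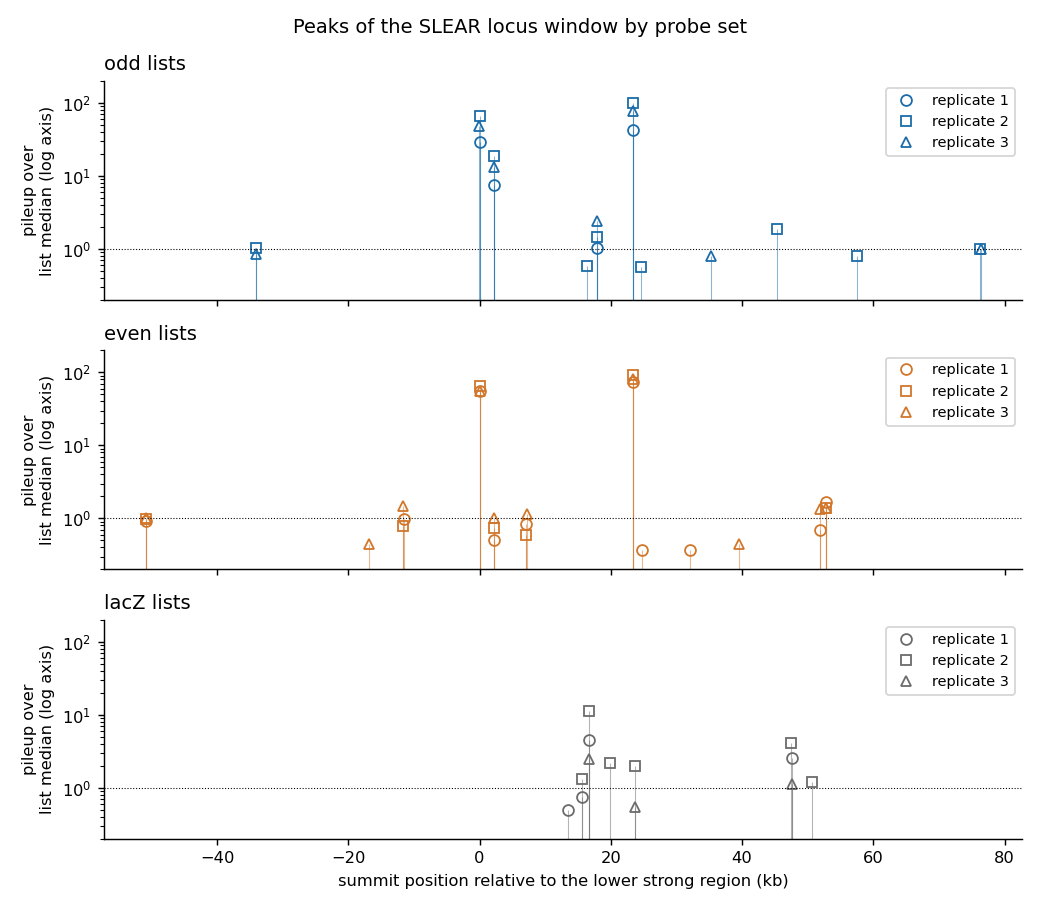
Each point is a peak of the window, drawn at the distance of its summit from the lower region in kb (horizontal axis) and at its pileup over the median of its list (vertical log axis), with 1 panel per probe set and 1 symbol per replicate; the dotted line marks the list median. The lower and upper regions stand at least 29.2 times above the median in all 6 probe lists, and the highest lacZ peak, at 11.2 times, lies between them.

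The pair was ranked among the regions with a peak in every probe list. Of all merged regions, 0.690% (2469) had a peak in all 6 probe lists, against 3 of the 24 in the window. Ordered by the geometric mean of relative pileup over the 6 lists, an order that scaling of a list does not alter, the upper region ranked 1 and the lower region 2 of the 2469. The geometric means were 75.8 and 51.8. The region ranked 3, on chromosome 2 from 20184616 to 20185662, reached 22.97, and that ranked 4, on chromosome 13, reached 17.59. Peaks of 2 lacZ lists lay in the upper region, 0 in the lower, 1 in that ranked 3 and 0 in that ranked 4.

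Each probe list held peaks outside the pair that stood higher than its regions. Most lay in regions with a peak in all 3 lists of their own set. Above the upper region these numbered 8 of 10, 6 of 6 and 7 of 7 in odd replicates 1, 2 and 3. In even replicates 1, 2 and 3 they numbered 2, 1 and 2 of 2. Above the lower region they numbered 14 of 16, 11 of 11 and 13 of 13 in the odd replicates. In the even replicates they numbered 2 of 2, 3 of 4 and 3 of 3. In odd replicates 1, 2 and 3, 10, 6 and 7 peaks outside the pair had a higher pileup than the upper region, and 2, 0 and 1 of them lay in a region with any even peak. Above the lower region stood 16, 11 and 13 such peaks, of which 5, 2 and 3 lay in a region with an even peak. In regions with a lacZ peak lay 4, 2 and 2 of the odd peaks above the upper region. Of those above the lower region, 5, 2 and 2 did. The share of all peaks of a list that lie in such regions is not given here. In each even list 2 peaks were higher than the upper region, all of them in regions with a lacZ peak. One of these, in even replicate 2, also lay in a region with an odd peak. Above the lower region stood 2, 4 and 3 peaks in even replicates 1, 2 and 3, with 0, 1 and 1 in a region with an odd peak and 2, 3 and 3 in a region with a lacZ peak.

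**Figure D2:**
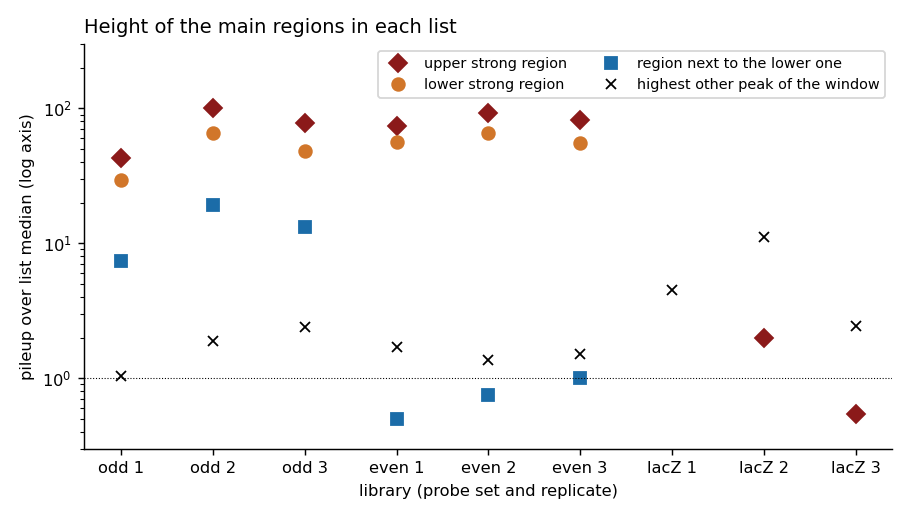
Pileup over the list median (vertical log axis) in each of the 9 libraries (horizontal axis) for the upper region, the lower region, the region next to the lower one and the highest other peak of the window. The upper region is above the lower in all 6 probe lists; a symbol is missing where a list had no peak.

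The heights of the pair kept a narrow range of ratios over the probe lists. The pileup of the lower region divided by that of the upper one was 0.678, 0.651 and 0.621 in odd replicates 1, 2 and 3, and 0.759, 0.715 and 0.685 in the even replicates. All 6 values were below 1, and every even value was above every odd value, by as little as 0.685 against 0.678. The ratio is taken within a list, so the depth of the library cancels. On the log2 scale it was −0.62 ± 0.06 with odd and −0.48 ± 0.07 with even probes (SD, n = 3), so odd stood −0.15 from even (two-sided exact permutation test, p = 0.1, the lowest possible for 3 against 3). With fold enrichment in place of pileup the difference was −0.14 and the exact permutation p was 0.5.

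Odd and even lists also differed little in relative pileup at these regions. The even lists were 1.30-fold higher at the lower and 1.18-fold higher at the upper region, as ratios of geometric means. Over the 2469 regions with a peak in all 6 probe lists, the median size of this log2 difference, odd minus even, was 1.21, against −0.38 and −0.24 here. With the sign kept, its median over those regions was 0.26, in the other direction. The difference was larger in size than here in 83.2% of those regions for the lower and in 89.2% for the upper region.

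The summits of the lower region coincided. They lay at 102064638, 102064639 and 102064557 in odd replicates 1, 2 and 3, and at 102064638, 102064636 and 102064637 in the even replicates. The median summits of the sets were 1 base apart, and odd replicate 3 was the list that stood off. The peaks were 1105 to 1243 bases long in odd and 1231 to 1458 bases in even lists, with overlapping ranges.

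In the upper region the sets had separate summits and lengths. Odd summits lay at 102088019, 102088015 and 102088017 in replicates 1, 2 and 3. Even summits lay at 102087970, 102087969 and 102087986, so the medians were 47 bases apart and the ranges did not overlap. Even peaks were 1936 ± 44.7 bases long and odd peaks 1472 ± 84.2 bases (SD, n = 3). Even peaks reached farther on both sides, starting from 102086950 to 102087019 against 102087101 to 102087239 in odd lists, and ending from 102088902 to 102088916 against 102088620 to 102088649. Among the 2469 regions with all 6 probe lists, summit ranges of odd and even lists failed to overlap in 80.4% and length ranges in 62.5%, so such a separation was common.

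**Figure D3:**
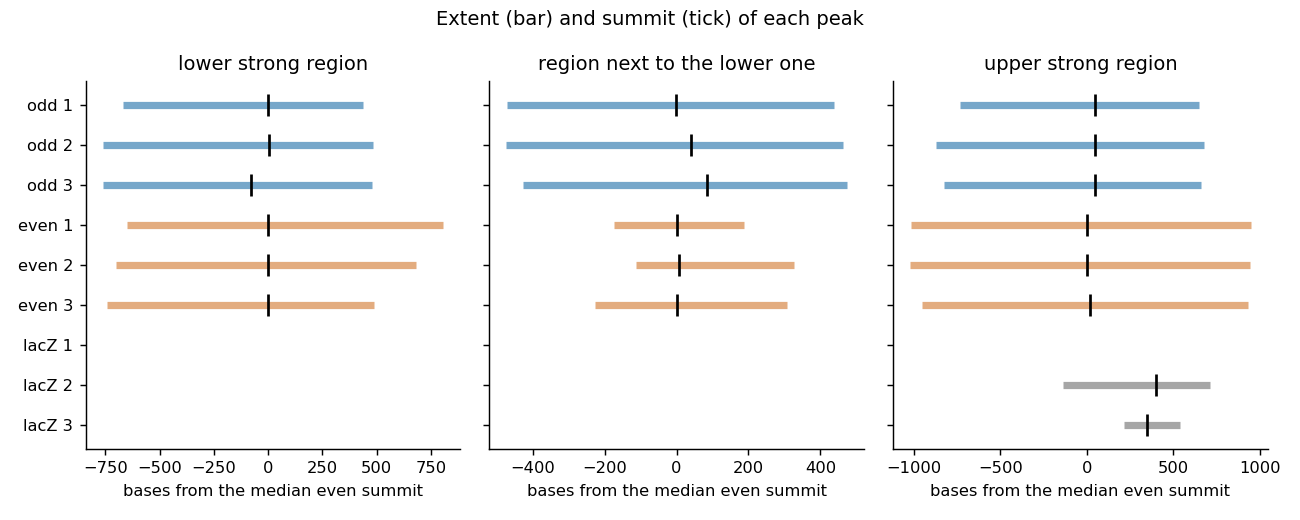
Each bar is the extent of a peak and each tick its summit, in bases from the median even summit (horizontal axis), for the 9 libraries (rows) in the lower region, the region next to it and the upper region. Even bars are longer than odd bars in the upper region and shorter in the region next to the lower one, and the lacZ ticks of the upper region lie to the side of the probe ticks.

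The control probes gave peaks inside the upper region whose summits lay away from the probe summits. In lacZ replicate 2 a peak from 102087832 to 102088680 had a pileup of 50, which was 2 times the list median, and its summit was at 102088370. In lacZ replicate 3 a peak from 102088184 to 102088506 had a pileup of 12, or 0.545 times the median, with the summit at 102088316. The peak of replicate 2 extended over the probe summits, and that of replicate 3 did not reach them. By pileup they stood at percentiles 74.5 and 16.9 of their lists. The lacZ summits were 299 and 353 bases above the median odd summit and 346 and 400 bases above the median even summit. In lacZ replicate 1 the list held no peak there.

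Next to the lower region was a peak that was tall with odd probes and small with even probes. It lay from 102066298 to 102067245, with 853 bases between the edges of the regions and summits 2136 bases from those of the lower region. The pileup was 193, 611 and 263 in odd replicates 1, 2 and 3, and 15, 24 and 20 in the even replicates. Every odd value was above every even value, and no lacZ list had a peak there. In the odd lists the peak ranked 975, 393 and 641 by pileup, above 98.5% or more of each list. In the even lists it was at or below the list median, at 0.5, 0.75 and 1 times.

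As a share of the lower region in the same list, the pileup of this neighbour was 25.4%, 29.0% and 27.2% in the odd replicates and 0.890%, 1.14% and 1.80% in the even replicates. The set means were 27.2% ± 1.81 and 1.27% ± 0.468 (SD, n = 3). By geometric means of relative pileup the odd lists were 17.1-fold higher, a log2 difference of 4.09. Of the 2469 regions with all 6 probe lists, 5.63% (139) differed more between the sets, and in 66.1% the odd and even ranges of relative pileup did not overlap. This was the case in 1 of the 3 such regions of the window. The even peaks were 445 ± 86.6 bases long against 916 ± 18.2 bases in odd lists (SD, n = 3), also without overlap.

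**Figure D4:**
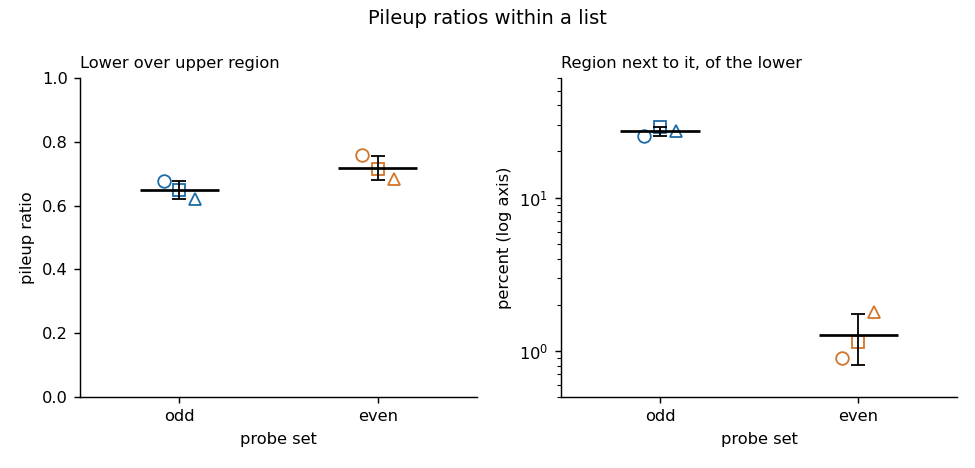
Left, pileup of the lower region over that of the upper region, and right, pileup of the region next to the lower one as a percentage of the lower region (log axis), for each odd and even library (symbols are replicates, lines and bars mean ± SD, n = 3). The left values lie between 0.621 and 0.759 in both sets, and the right values between 25.4% and 29.0% with odd and between 0.890% and 1.80% with even probes.

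The rest of the interval between the pair held small peaks that recurred within 1 set. All 3 even lists had a peak from 102071476 to 102072254, with pileups of 25, 19 and 23 in replicates 1, 2 and 3, near or below the list medians. A peak in all 3 odd lists ran from 102082241 to 102082872 and had pileups of 27, 47 and 48, or 1.04 to 2.4 times the medians. Neither region had a peak of any other set.

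The tallest lacZ peak of the window lay in the same interval, from 102080961 to 102081702 in replicate 1, 102080933 to 102081783 in replicate 2 and 102081039 to 102081702 in replicate 3. Its pileup was 108, 280 and 54 in lacZ replicates 1, 2 and 3, which was 6.05 ± 4.57 times the list median (SD, n = 3) and above 94.0%, 97.4% and 87.7% of the peaks of each list. In odd replicate 2 a peak with a pileup of 19 overlapped it, with a summit 272 to 329 bases below the lacZ summits. Beside it, from 102080243 to 102080618, lacZ replicates 1 and 2 had pileups of 18 and 33. In the interval lacZ replicate 1 had a further peak from 102078020 to 102078326, with a pileup of 12. Another, from 102084337 to 102084874 in lacZ replicate 2, had a pileup of 54 and the highest percentile, 76.3, of the 9 regions found in a single list.

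The flanks held no region that either probe set shared with the other in more than a single list each. On the lower side the even lists had peaks from 102013564 to 102013845 with pileups of 28, 31 and 20 in replicates 1, 2 and 3, and from 102052845 to 102053395 with 29, 25 and 30. Odd replicates 2 and 3 had a peak from 102030334 to 102030897 with pileups of 33 and 17. No lacZ list had a peak on this side.

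On the upper side a region from 102089052 to 102089470, just beyond the upper region, combined a peak of odd replicate 2 with a pileup of 18 and one of even replicate 1 with 11. Farther out, all 3 even lists had a peak from 102117171 to 102117719 with pileups of 51, 44 and 28 in replicates 1, 2 and 3. In even replicates 1 and 3 a peak from 102116352 to 102116641 had 21 and 27. Odd replicates 2 and 3 had a peak from 102140898 to 102141187 with pileups of 32 and 20. In all 3 lacZ lists a peak ran from 102111863 to 102112521, and its pileups were 62, 102 and 25. Single lists gave 6 more regions on this side and 1 on the lower side, and the 9 such regions of the whole window had pileups of 9 to 60.

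Outside the pair and the neighbour of the lower region, the probe peaks of the window had medians near those of their lists. The relative pileup of the 12 odd peaks had a median of 1.0 and ran from 0.563 to 2.4, at percentiles 20.1 to 81.9. That of the 18 even peaks had a median of 0.95 and ran from 0.367 to 1.7, at percentiles 5.67 to 72.2. The upper region was 32.5 to 53.97 times as high as the tallest of these peaks in the same odd list, and 43.6 to 67.2 times in the same even list. The 11 lacZ peaks outside the upper region had a median of 2.16.

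By rules over all merged regions, 2 of the 24 regions were found with 5 or more of the 6 probe lists and without lacZ, against 1.13% of all regions. These were the lower region and its neighbour. The upper region did not meet the rule because of the lacZ peaks described above. The lacZ lists held 46693, 91111 and 26540 peaks in replicates 1, 2 and 3, against 66520 to 124668 in the probe lists. The rule makes no allowance for list length. Peaks in all 3 lacZ lists and at most 1 probe list were found in 2 of 24 regions, against 6.13% of all. The count was 1 of 24 for all 3 odd and no even lists, against 15.1%, and 4 of 24 for all 3 even and no odd lists, against 18.0%. At least 1 odd and 1 even list met in 4 of 24 regions, against 2.40% of all.

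The window as a whole was compared between the probe and lacZ lists in number and in height. The number of peaks did not stand out. Per 10000 peaks of the list it was 0.603, 0.944 and 0.598 in the odd replicates, 1.06, 0.776 and 0.805 in the even and 0.859, 0.661 and 1.13 in the lacZ replicates. The probe mean was 0.798 and the lacZ mean 0.885 ± 0.238 (SD, n = 3), with overlapping values and probe minus lacZ at −0.0865 (two-sided exact permutation test over 84 choices, p = 0.536). Without lacZ replicate 3, the shortest list, the difference was 0.0381. When the genome was tiled into stretches of the same length, between 5.52% and 44.4% of the tiles held at least as many peaks of a list.

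Counted in bases, the peaks of the window covered more with the probe sets when the lower and upper regions were included. They took 128.2 bases per Mb of all peaks in the list with probes and 94.5 with lacZ (two-sided exact permutation test, p = 0.0119, the lowest possible for 84 choices). The values came close to overlapping, at 104.7 in odd replicate 3 and 104.4 in lacZ replicate 3. The lower and upper regions had been picked by their height in the probe lists. Their probe peaks were 1105 to 1962 bases long, against median peak lengths of 348 to 409 in the probe lists. Coverage outside these regions was not compared, so the p-value does not extend to the rest of the window.

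The highest peak of the window was far above that of the lacZ lists. The log2 of its pileup over the list median was 6.24 over the 6 probe lists and 2.32 ± 1.1 over the 3 lacZ lists (SD, n = 3), which differ by 3.93, with all 6 probe lists above all 3 lacZ lists (two-sided exact permutation test, p = 0.0119, again the lowest possible). Taken alone, odd lists differed from lacZ by 3.81 and even lists by 4.04 (exact permutation p = 0.1 for each, the lowest possible). In all 6 probe lists the highest peak was that of the upper region. The locus was chosen with earlier results of these data known. These p-values therefore describe how the lists separate at a chosen place and are no independent support. Outside the lower and upper regions, which had been picked by their height in the probe lists, the odd lists reached 2.89 to 4.26, through the neighbour of the lower region, and the even lists 0.46 to 0.77, while the lacZ lists, which kept their highest peak, reached 1.30 to 3.49.

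**Figure D5:**
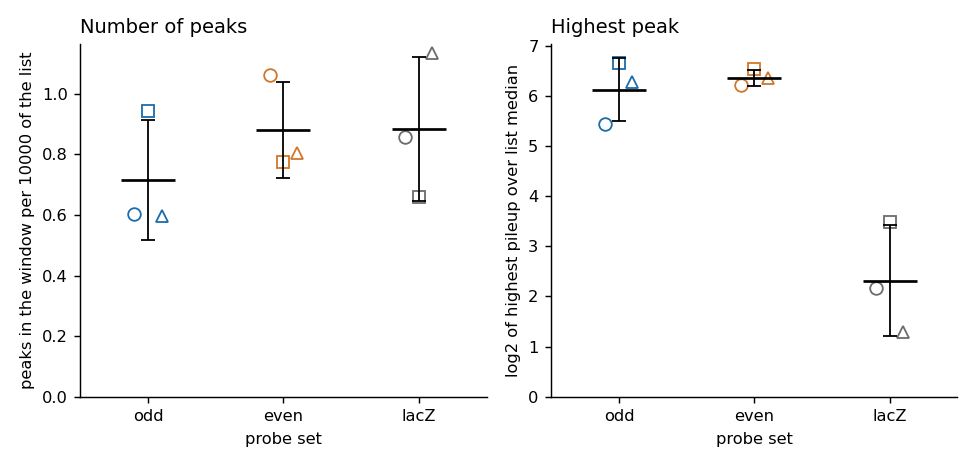
Left, peaks in the window per 10000 peaks of the list and right, log2 of the highest pileup in the window over the list median, for each library of the 3 probe sets (symbols are replicates, lines and bars mean ± SD, n = 3). The sets overlap on the left; on the right the lowest probe list is above the highest lacZ list.

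The edges of the window were set by position. The nearest peak below it had its summit at 101996912, in lacZ replicate 2 with a pileup of 66, and the lowest member at 102013740, in even replicate 2 with a pileup of 31. The highest member had its summit at 102141004, in odd replicate 3 with a pileup of 20, and the nearest peak above was at 102165944, in odd replicate 1 with a pileup of 24.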

How the data were processed

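Read quality was examined with FastQC, and Bowtie2 aligned the reads to hg19, per the submitters' processing notes. The sources used here do not give the peak caller, its settings or its control library. Each deposited list carries the names of its own sample, so peaks were called per sample. The deposited lists give positions counted from 1, the pileup as a coverage signal in whole numbers, the −log10 of p and q values, and a fold enrichment, a ratio over a background, per the file headers. The −log10 values were not used. Depth is unknown, so no interval for read sampling was computed.

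Peaks were merged at an overlap of at least 1 base with pandas 2.3.3 in Python 3.11.15, on chromosomes 1 to 22 and X. Merging, call rules and the exact permutation test were tested on simulated data. The 6 probe and 3 lacZ lists were compared over all 84 choices of controls. Regions with peaks in at least 2 lists are named, and single-list regions are summarised, apart from the one with the highest pileup percentile and those of the interval. The lower and upper regions are the 2 with peaks in all 6 probe lists and the highest mean percentile of pileup. The members, rules and regions were chosen with earlier results of these data known. Alternatives were stricter or shorter lists, wider merging, other heights and scales, single probe sets, a replicate block and leaving out replicates.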

Additional observations from a re-analysis of the deposited data

How the results depend on the processing

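The difference in the number of peaks, −0.0865 per 10000, was not past 0.05 in the main comparison and changed sign in 4 of 12 alternatives. It was 33.7 in bases per Mb of the list, with the long probe peaks of the lower and upper regions included. In lists of equal length it was 0.063. On leaving out replicates it was between −0.229 and 0.0864, positive without replicate 3 of lacZ or of all sets. The difference in the highest pileup, 3.93 on the log2 scale, was positive in all alternatives except outside the lower and upper regions, where it was −0.20. Those regions had been picked by their height in the probe lists while the lacZ lists kept their highest peak, so that value is no test. It was 3.81 with odd and 4.04 with even lists alone and 3.38 to 4.51 when replicates were left out, where smaller designs limit p. The odd-even difference in the ratio of lower to upper region, −0.15, was −0.14 to −0.15 when replicates were left out and 0.22 with peak length in place of height.

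Counts of regions are given beside the share of all regions under the same setting. Of regions with at least 5 probe lists and no lacZ list, 2 of 24 in the main comparison, there were 1 of 15 among stronger peaks by fold (0.737% of all) and 1 of 5 in lists of equal length (0.440%). The lacZ count, 2 of 24, was 1 of 21 with peaks merged over 500 bases (6.03%) and 1 of 15 among stronger peaks (7.09%). In lists of equal length it was 2 of 5 (18.6%). On leaving out replicates 1, 2 and 3 in turn it was 2 of 22 (6.92%), 2 of 20 (7.64%) and 3 of 21 (13.6%). The odd count, 1 of 24 against a share of 15.1%, was 1 of 5 in lists of equal length (19.6%). Without replicate 1 it was 3 of 22, where the share of all regions also rose, to 23.3%. Without replicates 2 and 3 in turn it was 1 of 20 (19.4%) and 1 of 21 (18.9%). The even count, 4 of 24 against a share of 18.0%, was 1 of 15 among stronger peaks (20.7%) and 0 of 5 in lists of equal length (19.2%). Without replicates 1, 2 and 3 in turn it was 4 of 22 (21.6%), 5 of 20 (26.1%) and 4 of 21 (22.6%). The stricter lists are shorter by their construction. For the rest, the cause was not tested. Depth is unknown, so small peaks missing from a list may lie below what that list could show.

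Same-numbered libraries did not deviate together throughout: over the 49 regions with a peak in all 9 lists, correlations of their deviations ran from −0.0823 to 0.273, and 5 of 9 were above 0.1. Between libraries with different numbers they ran from −0.286 to 0.201, a range lower at both ends. With a replicate block the differences kept their size by construction, −0.0865 for the number of peaks (exact permutation p = 0.556), 3.93 for the highest pileup (exact p = 0.037, the smallest that 27 arrangements allow) and −0.15 for the ratio (exact p = 0.25, the smallest that 8 allow). No call changed.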
